A study of Homo sapiens with 6 samples.

Results

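EDA2R, GDF15, SPATA18, TP53I3, CCNG1 and BAX, all genes that p53 is known to switch on, were followed across the 6 arrays of a study of U-87 MG cells. These 6 genes were taken by symbol from the platform annotation. Among probe sets with exactly 1 symbol, each of the 6 symbols was carried by 1. The members are thus 6 of 53617 probe sets, or 6 of 14884 named genes. The genes were selected on their log2 difference between exposed and unexposed cells, known from an earlier look at the same 6 arrays. Their own differences are therefore given as a description, with no test. U-87 MG is an established human glioblastoma line. In 3 exposed cultures, electromagnetic fields under the name RGFIELDS, aimed at HSP70, CHI3L1, hsa-miRNA-381 and a mutated alpha-kinase 2 gene, acted without a break for 54 h, beginning 24 h after seeding. The 3 unexposed cultures stood at 37°C in the same gas mixture for the same time, but in a box outside the Faraday chamber that held the exposed box, so field and box cannot be told apart. The design text calls the 3 replicates of each group independent and biological, whereas 1 label field of the exposed arrays uses both the word exposed and the word control, and the titles were followed here.

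The tumour suppressor p53 is a transcription factor that is held at low levels by the ubiquitin ligase MDM2 and builds up when DNA is damaged or the cell is otherwise stressed. It binds paired short repeats (decamers) in DNA near its targets and raises the transcripts of genes that halt the cell cycle, repair DNA, change metabolism, remove mitochondria or start cell death. Targets differ in how strongly and in which cells they answer, and many of them also answer to other factors. EDA2R is a TNF-family receptor for the ligand ectodysplasin A2, GDF15 a secreted stress cytokine, SPATA18 (also called Mieap) a protein of mitochondrial quality control, TP53I3 (PIG3) an oxidoreductase tied to reactive oxygen, CCNG1 cyclin G1, a partner of protein phosphatase 2A in feedback on p53, and BAX the pore-forming protein that opens the outer mitochondrial membrane in apoptosis.

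The 6 genes lie on 5 chromosomes, and their starts differ in sequence. All 6 had an entry in the RefSeq table of promoters (GRCh38.p14), with 8 windows in all. The 250 bases before the outer start of 4 of them are shown, those of EDA2R and GDF15 because they stand for the members with higher values in exposed cells, and those of CCNG1 and BAX because these members lacked such a difference. Capitals mark every match, on either strand, to the TATA box TATAAA, the CCAAT box CCAAT, the E-box CACGTG and the GC box GGGCGG, and no match overlaps another. The stretches are chrX:66639270-66639519 (minus strand) for EDA2R, chr19:18385908-18386157 (plus) for GDF15, chr5:163437321-163437570 (plus) for CCNG1 and chr19:48954625-48954874 (plus) for BAX.
EDA2R: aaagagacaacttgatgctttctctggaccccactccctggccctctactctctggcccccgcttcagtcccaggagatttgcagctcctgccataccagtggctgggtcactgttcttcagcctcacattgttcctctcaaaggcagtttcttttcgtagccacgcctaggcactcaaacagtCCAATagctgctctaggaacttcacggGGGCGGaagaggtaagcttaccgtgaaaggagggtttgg
GDF15: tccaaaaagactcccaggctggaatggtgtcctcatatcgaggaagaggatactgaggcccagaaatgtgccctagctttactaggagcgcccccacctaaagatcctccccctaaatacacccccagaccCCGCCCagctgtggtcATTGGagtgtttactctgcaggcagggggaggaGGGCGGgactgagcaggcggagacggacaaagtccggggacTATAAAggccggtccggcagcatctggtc
CCNG1: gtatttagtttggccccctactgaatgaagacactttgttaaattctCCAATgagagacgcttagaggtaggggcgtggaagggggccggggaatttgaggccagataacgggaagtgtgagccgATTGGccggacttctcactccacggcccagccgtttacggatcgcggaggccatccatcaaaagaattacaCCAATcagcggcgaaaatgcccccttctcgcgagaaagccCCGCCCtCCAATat
BAX: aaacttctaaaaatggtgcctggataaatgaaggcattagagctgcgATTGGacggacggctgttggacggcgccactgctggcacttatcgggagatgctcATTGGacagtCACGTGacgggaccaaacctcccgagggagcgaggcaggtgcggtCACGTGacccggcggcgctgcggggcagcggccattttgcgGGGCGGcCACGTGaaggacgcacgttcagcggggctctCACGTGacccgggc

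GDF15 was the member with a TATA box, which begins 29 bases before its start, and 10.7% of the 35116 windows in the table hold at least 1. It also held 1 CCAAT box and 2 GC boxes, and the EDA2R stretch shown held 1 of each. A further EDA2R window, at an inner start, held 6 GC boxes, 1 E-box and 0 CCAAT boxes, where 42.6% of windows hold at least 1 GC box. The CCNG1 stretch held 4 CCAAT boxes, where 32.0% of windows hold at least 1 and 0.874% at least 4. The BAX stretch held 4 E-boxes, at 138, 93, 45 and 14 bases before the start, where 6.35% of windows hold at least 1 and 5 of 35116 hold at least 4. The stretches of SPATA18 and TP53I3 held none of these 4 motifs, nor the p53 decamer, and 28.7% of windows hold none of the 5. The p53 decamer was matched strictly in 0 of the 8 windows of the members and in 5.57% of all windows. A missing match says only that these letters are not in these 250 bases.

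Of the 6 genes, 4 stood higher on every exposed array than on every unexposed one, and the other two did not. The 4 were EDA2R, GDF15, SPATA18 and TP53I3, with differences between 0.76 and 0.91 on the log2 scale, or 1.70-fold to 1.88-fold. CCNG1 and BAX had slightly lower means in exposed cells, with groups that overlapped. Over all genes, 13.2% had exposed values wholly above the unexposed ones and 13.8% wholly below. All levels below are log2 values of RMA (robust multi-array average), a summary of the probes of a probe set. Every member stood above the array medians of 3.96 to 3.99 on all 6 arrays.

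**Figure D1:**
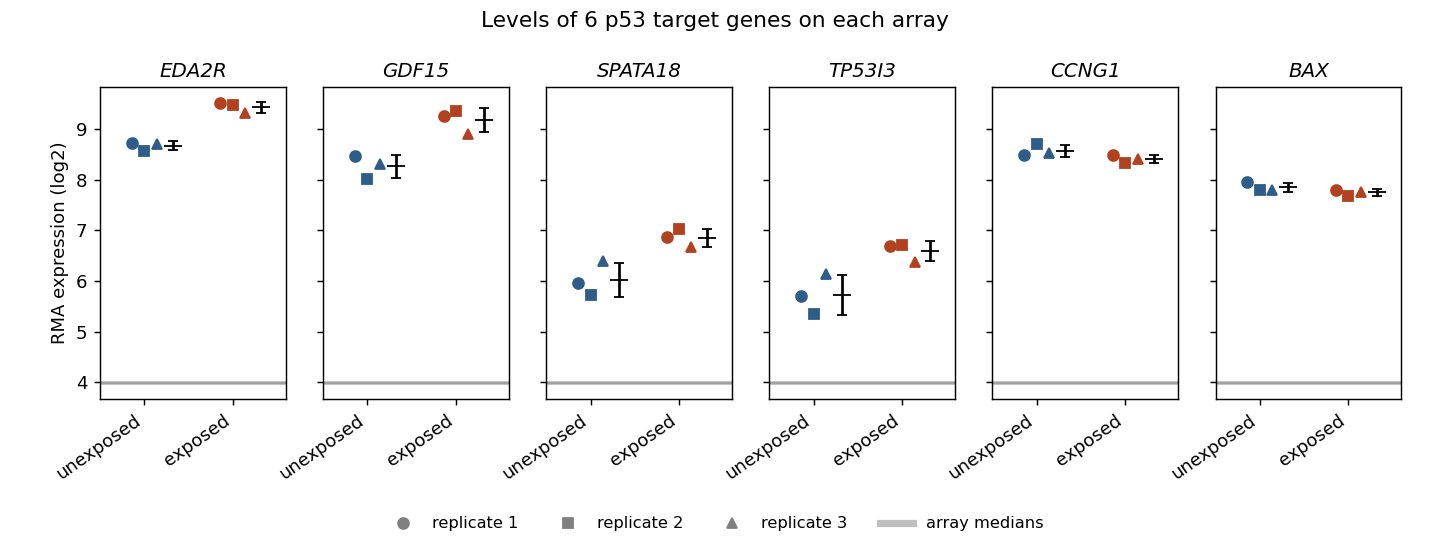
RMA expression (log2, vertical axis) of each gene on each array, with unexposed arrays in blue, exposed arrays in red and the replicate given by the symbol. Bars are the group mean and SD (n = 3), and the grey band is the range of the array medians; EDA2R, GDF15, SPATA18 and TP53I3 show no overlap of the groups, while CCNG1 and BAX do.

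Among the 4 higher genes, 2 encode proteins of the cell surface or outside the cell. The receptor gene EDA2R (probe set 17111725, X chromosome) read 9.52, 9.47 and 9.31 on exposed replicates 1 to 3 and 8.73, 8.57 and 8.71 on unexposed replicates 1 to 3. The lowest exposed array lay 0.58 above the highest unexposed array, the widest gap of the 6 genes. The exposed mean was 9.43 ± 0.11 and the unexposed mean 8.67 ± 0.08 (SD, n = 3 each), a difference of 0.76 (SE 0.08, 95% interval 0.59 to 0.94). The cytokine gene GDF15 (probe set 16859795, chromosome 19) read 9.25, 9.36 and 8.90 in exposed and 8.47, 8.01 and 8.31 in unexposed cells. Exposed replicate 3 and unexposed replicate 2 were the low arrays of their groups, and the gap between groups was 0.43. Its means were 9.17 ± 0.24 and 8.26 ± 0.23 (SD, n = 3 each), which differ by 0.91 (SE 0.15, interval 0.57 to 1.25). This was the largest difference of the 6, and 27 of the 14884 genes had a more positive one (0.181%).

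The other 2 higher genes act on mitochondria and oxygen radicals and were dimmer. SPATA18 (probe set 16966685, chromosome 4) read 6.86, 7.01 and 6.67 in exposed and 5.96, 5.71 and 6.39 in unexposed cells. The groups stood 0.28 apart, and unexposed replicate 3 was the array nearest to the exposed ones. Its means were 6.85 ± 0.17 and 6.02 ± 0.34 (SD, n = 3 each), a difference of 0.83 (SE 0.17, interval 0.43 to 1.23). TP53I3 (probe set 16895179, chromosome 2) read 6.69, 6.72 and 6.37 in exposed and 5.70, 5.35 and 6.14 in unexposed cells. It had the narrowest gap of the 4, at 0.23, again to unexposed replicate 3. Its means were 6.59 ± 0.20 and 5.73 ± 0.40 (SD, n = 3 each), a difference of 0.86 (SE 0.20, interval 0.41 to 1.32). The unexposed arrays thus set most of the error of this pair.

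The feedback gene CCNG1 and the death gene BAX differed by less. CCNG1 (probe set 16991839, chromosome 5) read 8.49, 8.33 and 8.41 in exposed and 8.48, 8.70 and 8.52 in unexposed cells. Exposed replicate 1 stood above unexposed replicate 1, so the groups overlapped. The difference was -0.16 (SE 0.08, interval -0.34 to 0.03) between means of 8.41 ± 0.08 and 8.57 ± 0.12 (SD, n = 3 each). BAX (probe set 16863922, chromosome 19) read 7.80, 7.67 and 7.76 in exposed and 7.95, 7.79 and 7.79 in unexposed cells. Unexposed replicate 1 alone stood above all exposed arrays. The difference was -0.10 (SE 0.08, interval -0.27 to 0.08) between means of 7.75 ± 0.07 and 7.84 ± 0.10 (SD, n = 3 each). The annotation ties this probe set to a noncoding BAX transcript, and which coding transcripts it also reads is not given in the sources used here.

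**Figure D2:**
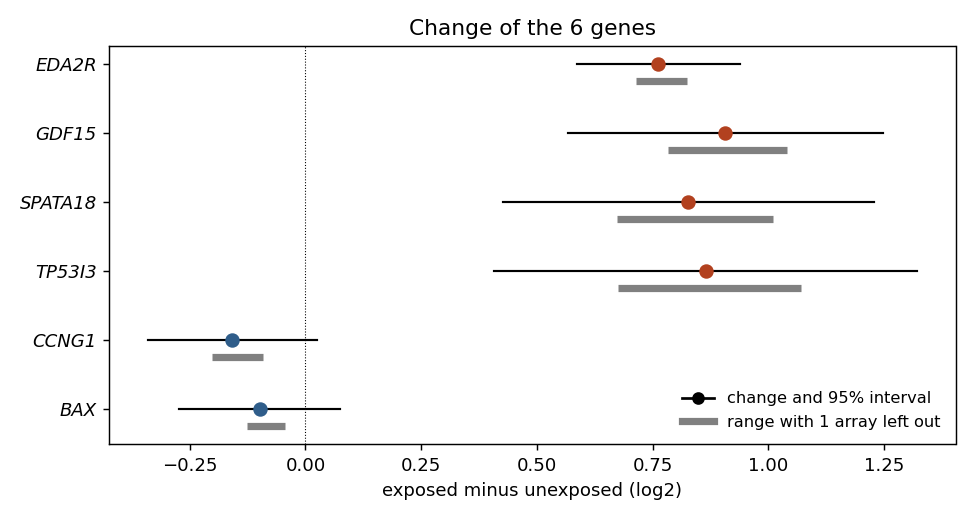
Difference of each gene, exposed minus unexposed (log2, horizontal axis): points are the 6-array value, black lines the 95% interval and grey bars the range when 1 array is left out. The 6 genes were chosen on these differences, so the intervals describe the spread of the arrays and are no test.

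Left-out arrays moved the sizes. The groups of the 4 higher genes did not overlap, so leaving out 1 array could not turn their sign. With 1 array left out in turn, EDA2R lay between 0.71 and 0.82, GDF15 between 0.78 and 1.04, SPATA18 between 0.67 and 1.01 and TP53I3 between 0.67 and 1.07. Each of these 4 had its lowest value without unexposed replicate 2. That array also stood farthest out over all genes, at -20.5 on the first principal component, where the other unexposed arrays were at -8.41 and -10.4 and the exposed ones at 7.78 to 18.7. CCNG1 lay between -0.20 and -0.09 and BAX between -0.13 and -0.04. With arrays centred on their ribosomal protein genes BAX was at -0.0066 and CCNG1 at -0.07.

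The 4 higher genes also shared the order of the arrays within each group, in part. Exposed replicate 3 was the lowest exposed array and unexposed replicate 2 the lowest unexposed array for all 4. The same arrays were lowest in their groups on the first principal component over all genes (7.78 and -20.5). GDF15 had the order of that component over all 6 arrays, so the shared order is not particular to these genes. SPATA18 and TP53I3 had the same order over all 6 arrays. After each group's mean was taken away, their deviations had a Pearson r of 0.98 over the 6 arrays, and those of EDA2R and GDF15 one of 0.93. The remaining 4 pairs among these genes had r of 0.64 to 0.74. Between a higher gene and CCNG1 or BAX, the 8 pairs ran from -0.66 to 0.29. These values describe 6 arrays that all genes share, and carry no test.

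**Figure D3:**
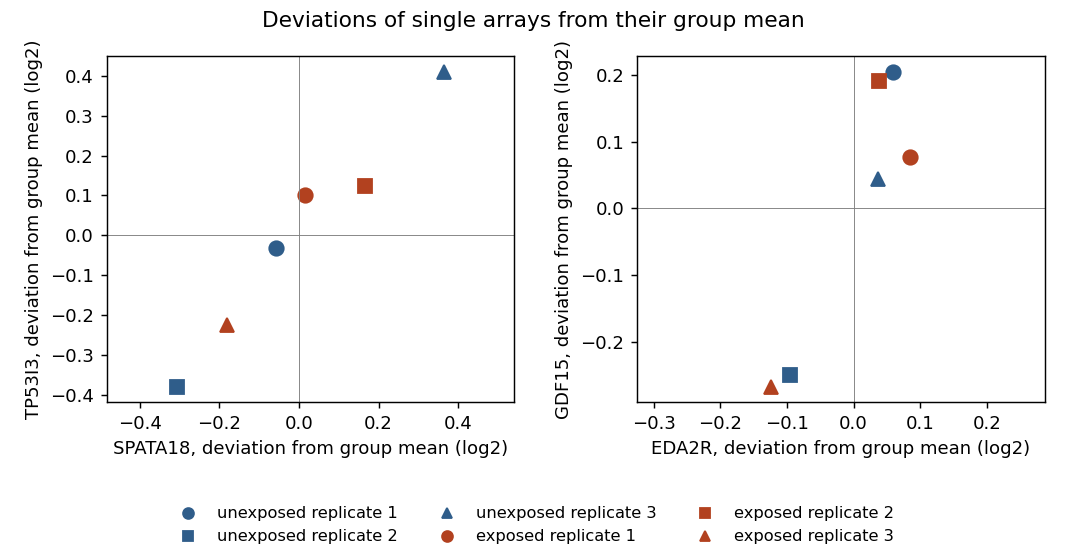
Deviation of single arrays from their group mean (log2), TP53I3 against SPATA18 on the left and GDF15 against EDA2R on the right, with the scales of both panels in log2 units. Colour gives the group and symbol the replicate; in both panels unexposed replicate 2 and exposed replicate 3 are the lowest points.

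Genes with the most similar profile over the 6 arrays were sought among 7282 other genes at or above the median level. For EDA2R they were ERAP2, a peptidase that trims antigens (r = 0.996), POMT2, an O-mannosyltransferase (0.996), and RRAS, a small GTPase (0.996). GDF15 was most like DLX5, a homeobox factor (0.9998), SAMHD1, which breaks down deoxynucleotides (0.999), and GRN, which encodes progranulin (0.999). WDR81 and AHI1 were among the 3 nearest genes of both SPATA18 (0.999 and 0.994) and TP53I3 (0.997 and 0.998). The third was the noncoding NRAV for SPATA18 (0.998) and the protease gene BMP1 for TP53I3 (0.995). CCNG1 was nearest to MSI2, an RNA-binding protein gene (0.996), COX4I1, a subunit of cytochrome c oxidase (0.995), and GPR137C (0.992). BAX was nearest to the centromere gene CENPO (0.976), DMBX1 (0.972) and the lipase gene PNPLA2 (0.969). With 6 arrays such values are common: the third highest r of a gene had a median of 0.983 over these 7282 genes.

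The surrounding p53 network was read from 8 lists of regulators and targets, compiled from general knowledge with earlier results of these arrays known, and without the 6 genes. Of 134 entries 84 were measured, and MDM2 and CDKN1A were among those not analysed here. In exposed cells 8 of the 84 rose and 1 fell, which is 10.7%, while 3.06% of all genes were past the threshold, 1.4% higher and 1.67% lower (limma with Benjamini-Hochberg adjustment over all genes, adjusted p under 0.05). The median difference of the 84 was 0.08, against 0.00288 over all genes, and 54 of 84 were positive, or 64.3%, against 50.7% of all genes. The count of 9 was 5 without exposed replicate 3, 2 without unexposed replicate 1 and 0 without any of the other 4 arrays, where 24 to 33 of the 84 had an unadjusted p under 0.05 in limma. With all arrays 34 of the 84 did, or 40.5%, against 18.9% of all genes (2815 of 14884). The shares of all genes include dim ones, and the contrast was narrower among brighter probe sets. At or above the median level, 10 of 83 network genes passed the threshold by limma, against 753 of 10712 genes. There 35 of the 83 had an unadjusted p under 0.05 in limma, against 2623 of the 10712.

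Secreted and surface targets held the pair with the largest differences. CSF1, the growth factor of macrophages, read 8.70, 8.78 and 8.45 in exposed and 7.89, 7.48 and 7.76 in unexposed cells. It rose by 0.94 (SE 0.12, limma adjusted p = 0.0287), with all exposed arrays above the unexposed ones. TLR3, a sensor of double-stranded RNA that interferon also induces, read 7.06, 7.21 and 6.52 in exposed and 5.78, 5.88 and 6.04 in unexposed cells. It rose by 1.03 (SE 0.17, limma adjusted p = 0.0324). Of the 9 measured targets of this kind 2 rose and 7 did not pass, among them IGFBP3, which binds insulin-like growth factors (-0.28), and PLTP, a phospholipid transfer protein (-0.14).

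The list of autophagy and mitophagy targets, the kin of SPATA18 by role, had 2 of 6 past the threshold, DRAM1 and TM7SF3. TM7SF3 was placed in it when the lists were compiled, and no role in autophagy is claimed for it here. DRAM1, a lysosomal membrane protein gene, read 7.61, 7.68 and 7.28 in exposed and 6.93, 6.70 and 6.98 in unexposed cells and rose by 0.66 (SE 0.13, limma adjusted p = 0.0402). TM7SF3, a membrane protein gene, rose by 0.52 (SE 0.07, limma adjusted p = 0.0287) on its brighter probe set. Its other probe set, below the array medians, had a difference of -0.0884. The average of both was at 0.22 (limma adjusted p = 0.196). The kinase genes ULK1 (-0.10) and ULK2 (-0.20) did not pass.

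Cell death targets, to which BAX and EDA2R belong by role, had 0 of 12 past the threshold by limma, 4 (33.3%) with an unadjusted p under 0.05 where 18.9% of all genes had one, and a median of 0.15. On the positive side IKBIP (0.42) and NINJ1, which ruptures the plasma membrane (0.31), had the smallest p. The 2 negative genes were CFLAR, an inhibitor of caspase activation (-0.33), and AEN, a nuclease (-0.05). Metabolic and redox targets, the kin of TP53I3, had 0 of 12 past it, also with 4 (33.3%, against 18.9% of all genes) at an unadjusted p under 0.05, and a median of 0.10. CMBL (0.43) and the peroxisomal CROT (0.27) had the smallest p on the positive side, and ISCU, of iron-sulphur assembly (-0.08), and LPIN1 (-0.04) on the negative.

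In the cell cycle list 1 of 7 genes passed. E2F7, a repressor of E2F targets that itself peaks in dividing cells, read 8.55, 8.65 and 8.69 in exposed and 9.18, 9.15 and 9.15 in unexposed cells. It fell by 0.53 (SE 0.06, limma adjusted p = 0.0260). CCNG2, the relative of CCNG1, was at 0.23 and the kinase PLK3 at 0.21, while SERTAD1 was at -0.03 and none of these passed. Of the 2 measured repair targets, RRM2B, a ribonucleotide reductase subunit, was at 0.26 and the sliding clamp PCNA at -0.18, and neither passed.

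Among 13 measured regulators and feedback genes of p53, TRIM22, a tripartite motif protein that p53 and interferon induce, was higher by 0.52 (SE 0.09, limma adjusted p = 0.0324), while 12 others did not pass. TP53BP1, a protein of DNA break repair that binds p53, was at 0.31. MDM4, the relative of MDM2 that blocks p53 activity, read 6.34, 6.32 and 6.48 in exposed and 6.67, 6.65 and 6.79 in unexposed cells. Those groups did not overlap, but the difference of -0.33 (SE 0.08) missed the threshold (limma adjusted p = 0.0802). The acetyltransferase EP300 was at -0.21, and the median of the list was -0.09. Of 23 other direct targets, 3 rose: the small GTPase gene RRAD by 0.40, the calcium channel gene ORAI3 by 0.43 and the HSP70 relative HSPA4L by 0.46, with limma adjusted p of 0.0438, 0.0336 and 0.0474. These 3 calls and that of TRIM22 were lost whichever single array was left out. With arrays centred on their medians the limma adjusted p was 0.0506 for RRAD and 0.0585 for HSPA4L. The other network calls were also mostly lost. CSF1 and E2F7 passed in 2 of the 6 fits with 1 array left out, and TLR3, DRAM1 and TM7SF3 in 1 of the 6. FOSL1, an AP-1 subunit (-0.22), and IER5 (-0.15) did not pass, nor did ABHD4 (0.92, limma adjusted p = 0.0510), which was named after its values were seen.

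**Figure D4:**
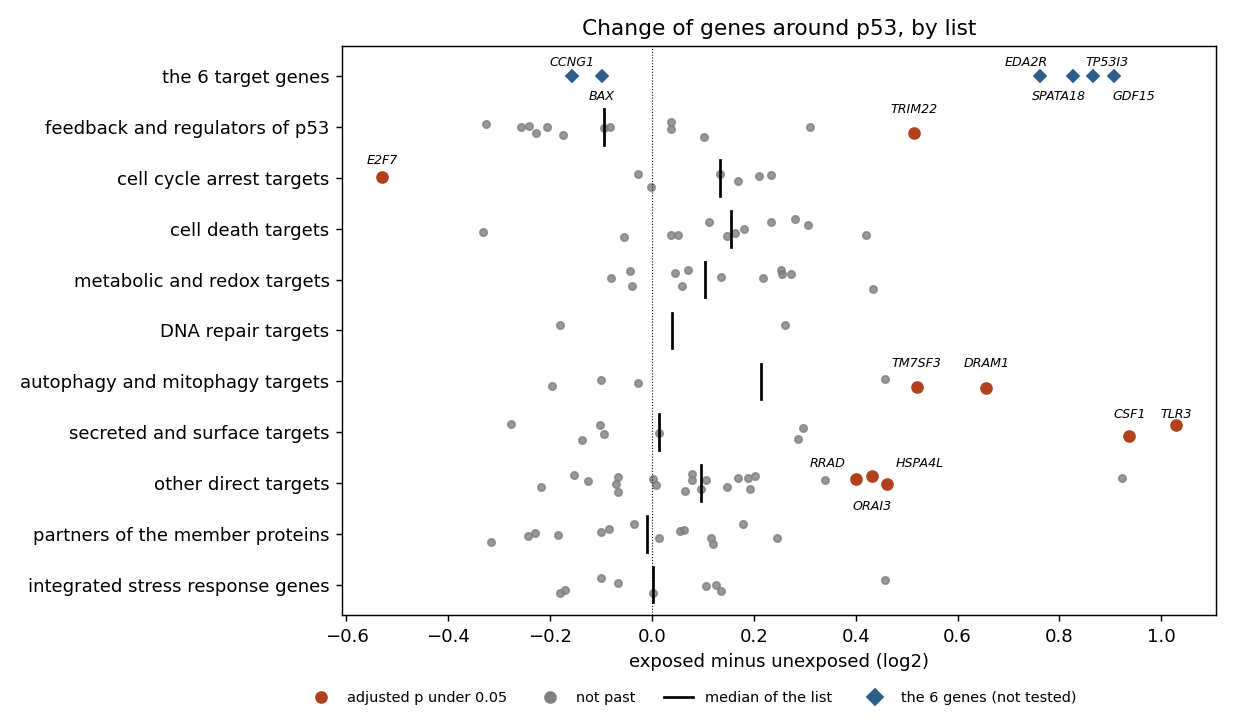
Difference of each gene, exposed minus unexposed (log2, horizontal axis), by list: red points passed an adjusted p of 0.05, grey points did not, black lines are list medians and blue diamonds are the 6 target genes, which were not tested. CSF1 and TLR3 lie farthest to the right among tested genes at 0.94 and 1.03, and E2F7 farthest to the left at -0.53.

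Partners of the 6 proteins did not pass, 0 of 14 by limma. Of the 14, 2 (14.3%) had an unadjusted p under 0.05 in limma, against 18.9% of all genes. Groups did not overlap for 50% of the partners, 3 with exposed higher and 4 with exposed lower, against 27% of all genes. EDA, the ligand of EDA2R, was dim, with 4.11, 3.77 and 4.15 in exposed and 4.10, 3.80 and 3.94 in unexposed cells. Its difference was 0.06, with an interval of -0.30 to 0.42. The related receptor gene EDAR was at 0.25 and its adaptor EDARADD at -0.23. Both were dim, with exposed and unexposed means of 3.98 and 3.73 for EDAR and of 3.60 and 3.83 for EDARADD. The signalling adaptor TRAF3 was at -0.32. The receptor pair of GDF15 stood below the array medians, GFRAL at 1.96 in exposed and 1.84 in unexposed cells and RET at 3.06 and 3.10. GAK, a kinase that binds cyclin G, was at -0.24. Around BAX, the other pore formers BAK1 (-0.08) and BOK (0.05) did not pass, nor did BCL2 (-0.18), BCL2L1 (-0.10), MCL1 (0.01), BCL2L11 (0.18) or BNIP3 (0.12).

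GDF15 also answers to the integrated stress response, the programme of ATF4 that slows translation under amino acid or folding stress. Of 14 entries of that list 9 were measured, and CHAC1, PPP1R15A and NUPR1 were among those not analysed here. The list is not separate from the p53 network, as SESN2, DDIT4 and ATF3 were also counted among its 84 genes. Of the 9 genes 0 passed by limma and 1 (11.1%, against 18.9% of all genes) had an unadjusted p under 0.05, with a median of 0.00228. ATF4 was at -0.07, DDIT3 (CHOP) at 0.13 and TRIB3 at -0.10, while DDIT4 was at 0.46 and SESN2 at 0.14, and on the other side ASNS stood at -0.18 and PHGDH at -0.17.

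Array correlations over all probe sets were 0.985 to 0.988 within groups and 0.982 to 0.987 between them. Of the line's 7 measured markers, VIM, FN1, CD44, NES and GFAP stood above the array medians on all arrays and S100B and SOX2 did not. GFAP (0.35) stood higher on all exposed arrays and FN1 (-0.17), S100B (-0.42) and CD44 (-0.12) lower. Over all genes, 27% had groups without overlap in either direction. By limma 0 of the 7 passed, with adjusted p of 0.143, 0.148, 0.251 and 0.330 for these 4. The unadjusted p in limma was under 0.05 for GFAP, FN1 and S100B, and for 18.9% of all genes. CD14, the 1 measured leukocyte marker, summed to 3.29 to 3.41 in exposed and 2.74 to 3.18 in unexposed cells, and the endothelial PECAM1 and VWF together to 6.96 to 7.04 and 6.25 to 6.93. All 3 had means below the array medians in both groups, and their part in the results was not tested. The 3 epithelial markers summed to 11.77 to 11.97 and 11.67 to 11.96, and the neural SYT1 and MBP to 9.85 to 9.95 and 9.67 to 10.1. The epithelial EPCAM and CLDN4 and the neural SYT1 and MBP also stood above the array medians on all arrays. Standing above the medians thus does not set the line's markers apart from those of other cell types. Of these 8 markers of other cell types 0 passed by limma, and 0 had an unadjusted p under 0.05. In bulk RNA, fewer cells of a kind and less RNA per cell cannot be told apart.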

How the data were processed

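RNA from 3 exposed and 3 unexposed cultures was read on 1-colour Affymetrix arrays. The authors deposited 1 log2 value per probe set and array, made with RMA in Affymetrix Expression Console 3.0 and Transcriptome Analysis Console 3.0, per the submitters' processing notes, with further settings not given in the sources used here. RMA makes array distributions alike, so a change in total RNA per cell would not show. The table has no detection calls, and precision is limited by the number of arrays.

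Of 53617 probe sets, 16098 carried exactly 1 gene symbol. The other 37519 carried no symbol or several, were not split further, and represented no gene here. A gene was represented by its brightest probe set. All probe sets were fitted with limma 3.58.1 in R 4.3.3 (eBayes, trended prior variance, two-sided, no covariate, no filter), and p-values were adjusted by Benjamini-Hochberg over 14884 genes. Errors are SE from the fit or SD. In simulated arrays the procedure recovered 19% of 200 genes changed by 0.5 log2 and 83.5% changed by 1 log2. Those arrays held no other changed gene and independent noise, so the shares do not give the recovery in the arrays studied here. Promoter windows come from RefSeq (GRCh38.p14). Figures used matplotlib 3.10.9.

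The 6 genes and all lists were chosen with earlier results of these data known. Named are the 6 genes, list genes past the threshold, otherwise the 2 with the smallest p per direction, the measured partners, and the 3 genes most correlated with each of the 6. The alternatives were a replicate block, no variance trend, quantile normalization again, arrays centred on medians or ribosomal protein genes, brighter probe sets alone, averaging over all probe sets that carry a symbol, and each array left out.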

Additional observations from a re-analysis of the deposited data

How the results depend on the processing

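The differences of the 6 genes kept their sign in all 78 combinations of gene and alternative. With 1 array left out, this was fixed in advance for EDA2R, GDF15, SPATA18 and TP53I3, whose groups do not overlap. A replicate block, no variance trend, brighter probe sets alone and averaging over probe sets leave these differences unchanged by design. Of the 78 combinations, 77 moved by less than the spread between replicates. The exception was BAX, at -0.0066 (and CCNG1 went to -0.07) once the arrays had been centred on 45 ribosomal protein genes, which raised the median over all genes from 0.00288 to 0.0944. Calls were less stable. The count of p53 network genes past the threshold, 9 of 84, was 0 without a variance trend and ran from 0 to 5 with 1 array left out. The count over all genes, 456, was 0 without a variance trend, 254 with ribosomal centring, 753 over probe sets at or above the median level and 0 to 325 with 1 array left out. With the replicate number as a block both counts were 0, with 28 network genes and 2286 genes at an unadjusted p under 0.05. Same-numbered arrays did not deviate together over all genes (r of -0.07 to -0.03 over 14884 genes). Such an r cannot show whether they share a batch that moved some of the genes. For the 9 network genes past the threshold, 70 of 117 alternative values no longer passed. Of the 117, 0 changed sign, which leaving out 1 array could not bring about, as the groups of these genes did not overlap. Dim genes such as EDA and GFRAL lie near or below the array medians.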
